A study of Mus musculus with 6 samples.

Results

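The genes described here are 36 genes of the contractile apparatus, the excitation machinery and the neuromuscular junction of skeletal muscle, out of 18193 genes that the array could name. They were taken by symbol from the array's annotation, with earlier results of these data known. Their RNA was read in tissue dissected from around the inner ear of mouse embryos at embryonic day 11.5, which held the otic vesicle (the epithelial sac that becomes the inner ear) and the periotic mesenchyme (the loose tissue around it). Mest-KO embryos carried a conditional knockout of Tbx1, a T-box transcription factor gene, made with T-Cre. Control embryos were T-Cre conditional Tbx1 heterozygotes, so both groups carried the Cre transgene and neither was wild type. T-Cre is a recombinase driven by the promoter of the gene Brachyury (T), which is active in early mesoderm. There were 3 arrays per genotype, and each array read the RNA of both ears pooled from 3 embryos, so a value is a mean over embryos of 1 pool.

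Skeletal muscle shortens when the thick filaments, built of myosin, pull on thin filaments of actin, and the repeating unit of both filaments is the sarcomere. Troponin and tropomyosin on the thin filament keep myosin from binding actin until calcium binds troponin C. The calcium is let out of the sarcoplasmic reticulum through the ryanodine receptor. The nerve starts this at the neuromuscular junction, where acetylcholine receptors are gathered under the nerve ending. In the head, muscle forms from cranial and pharyngeal mesoderm, the first differentiated fibres express embryonic and cardiac forms of these proteins, and Tbx1 is known as a gene of pharyngeal muscle progenitors. The tissue was dissected for the ear and not for muscle, and in such bulk RNA fewer muscle cells and less RNA per muscle cell cannot be told apart.

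Differentiation of these genes is known to run through MyoD-family factors, which bind E-boxes, and through SRF and MEF2 factors, which bind the CArG box and the MEF2 site. RefSeq promoter windows of GRCm38.p6, 250 bases before to 50 bases after the start of the gene, were found for 28 of the 36 genes, in 32 windows. The 250 bases before the start are printed for 4 genes on which the results turn, 5′ to 3′ on the strand of the gene, in lower case with E-boxes and the CArG box in capitals. Actc1 (chr2:114052876-114053125, minus strand), Mylpf (chr7:127211358-127211607, plus strand) and Chrng (chr1:87205561-87205810, plus strand) are an actin, a myosin light chain and a receptor subunit. Each was highest on control 2 among the controls and on Mest-KO 2 among the Mest-KO arrays. Ryr1 (chr7:29125152-29125401, minus strand) had the largest difference between the genotypes among the genes tested.
Actc1: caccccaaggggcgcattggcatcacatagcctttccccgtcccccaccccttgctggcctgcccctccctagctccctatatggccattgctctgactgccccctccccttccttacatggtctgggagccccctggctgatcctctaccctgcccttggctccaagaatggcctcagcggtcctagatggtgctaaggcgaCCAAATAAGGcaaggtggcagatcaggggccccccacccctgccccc
Mylpf: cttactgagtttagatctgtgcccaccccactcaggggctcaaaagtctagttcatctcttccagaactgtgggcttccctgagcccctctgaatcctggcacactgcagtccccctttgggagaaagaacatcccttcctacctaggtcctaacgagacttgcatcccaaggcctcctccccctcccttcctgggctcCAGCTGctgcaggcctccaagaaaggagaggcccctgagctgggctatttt
Chrng: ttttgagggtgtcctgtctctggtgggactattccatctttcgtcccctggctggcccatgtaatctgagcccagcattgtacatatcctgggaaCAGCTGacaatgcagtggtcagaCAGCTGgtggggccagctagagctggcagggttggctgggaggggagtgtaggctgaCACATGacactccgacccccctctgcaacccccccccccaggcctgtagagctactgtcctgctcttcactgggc
Ryr1: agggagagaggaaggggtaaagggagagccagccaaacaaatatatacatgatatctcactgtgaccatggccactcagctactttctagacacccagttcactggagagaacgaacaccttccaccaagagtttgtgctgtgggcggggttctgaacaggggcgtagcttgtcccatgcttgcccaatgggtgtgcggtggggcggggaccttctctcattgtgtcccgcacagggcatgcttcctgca
The Actc1 stretch held a CArG box that began 47 bases before the start. In Mylpf the E-box CAGCTG, of the kind that MyoD and myogenin prefer, began 51 bases before the start. Chrng held the same E-box letters 155 and 132 bases before the start, and a CACATG 75 bases before it. None of the motifs searched was found in the Ryr1 window, which says only that these letters are not in it. All 4 motifs read the same on both strands, and CAGCTG is itself one of the CANNTG E-boxes. Over the whole 300-base windows, CANNTG was found in 87.5% of the 32 muscle gene windows and in 72.3% of all 32851 windows. For CAGCTG the shares were 46.9% and 16.3%, for the CArG box 15.6% and 1.63%, and for the MEF2 site 9.38% and 3.19%. Some genes have 2 windows that overlap, and the single CArG box of Ldb3 is counted in both of its windows. Counted by gene, the CArG box was found in 4 of the 28 (Actc1, Acta1, Ldb3 and Myom1), or 14.3%, beside 1.81% of all genes with a window. The MEF2 site was found in 3 (Ttn, Casq2 and Myh8), or 10.7%, beside 3.70%. A match is a description of the letters, and binding was not measured.

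Values are deposited array intensities, scaled to a common level, and a gene with several probe sets was read by the brightest one on average. All 36 genes had at least 1 probe set and 12 had several, 60 in all. The array also carries 27 probe sets for bacterial RNA that was absent from the sample mix, and their top intensity, 11.2, is used here as the level of background. On every array 23 of the 36 genes were above it, 9 were above it on some arrays, and 4 (Neb, Chrnd, Cav3 and Myom2) were at or below it on every array. A filter on the mean level left 28 of the 36 genes in the test between genotypes. The other 8 were Myh8, Neb, Ckm, Chrnd, Musk, Rapsn, Cav3 and Myom2. Intensities of different probe sets depend on their sequence, so levels are compared between arrays and not between genes. Over all genes that passed the filter, arrays correlated at 0.991 to 0.993 within groups and 0.987 to 0.992 across groups. Tbx1 itself read 525, 567 and 447 in controls 1 to 3 and 520.5, 578 and 410 in Mest-KO 1 to 3 (log2 difference -0.03 ± 0.14 SE, adjusted p = 0.967). Where its probe set lies against the deleted part is not given in the sources used here, so it does not check the labels. All 12 otic vesicle markers and all 13 periotic mesenchyme markers with a probe set passed the filter.

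The difference that stood out in the muscle genes was between pools of the same genotype. The arrays control 2 and Mest-KO 2 were each the highest of their group for 13 of the 28 genes tested: the actin Actc1, the troponins Tnnt1, Tnnt2 and Tnnc2, the myosins Myl1, Myl4, Mylpf and Myh3, Trim63, Mybph, Des, Casq2 and Chrng. That is 46.4% of the 28 genes, where 8.61% of all 14170 genes tested had that order. These arrays were singled out after their values were seen, so the count is a description and was not tested. By role, the order held for 4 of 5 myosins, 3 of 7 troponins, 1 of 2 actins and 2 of 8 genes of the sarcomere scaffold. The highest of all 6 arrays was Mest-KO 2 for 14 of the 28 genes and control 2 for 6, together 71.4%, against 29.0% over all genes tested.

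Averaged over the 28 genes, the deviation from each gene's mean on the log2 scale was -0.08, 0.09 and -0.13 for controls 1, 2 and 3. For Mest-KO 1, 2 and 3 it was -0.11, 0.35 and -0.12. With arrays centred on their medians, control 2 stood at 0.21 and Mest-KO 2 at 0.35. The other 2 Mest-KO arrays thus lay as low as the lower controls, and the high array of each group was the one numbered 2. Arrays of the same number did not deviate together over all genes. That check cannot show whether same-numbered pools had something in common that touched only the muscle genes, and the labels do not say. Summed over all 36 genes, intensity was 2680, 3433 and 2403 in the controls and 2704, 3898 and 2664 in Mest-KO. The median ratio of the highest to the lowest array was 2.27 for the 28 genes and 1.35 for all genes tested, a comparison in which genes were not matched for their level.

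**Figure D1:**
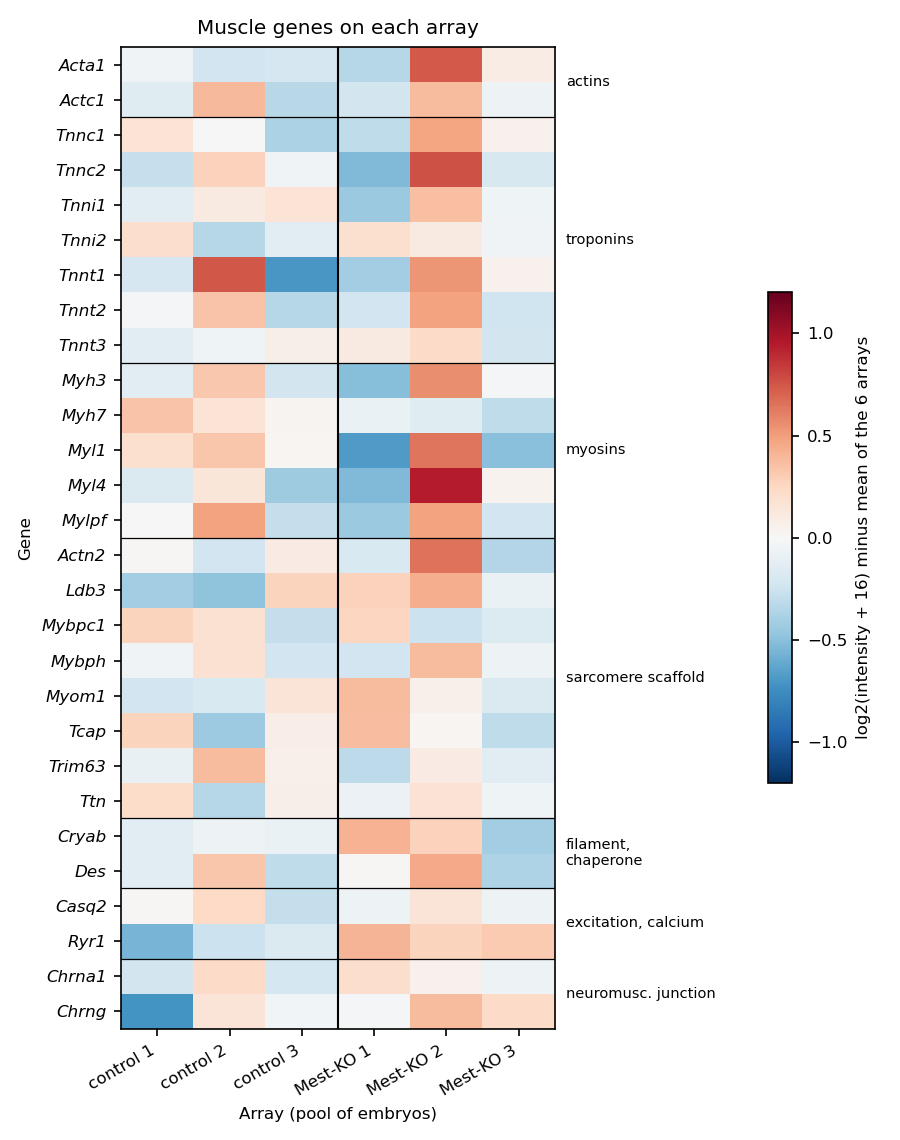
Heat map of the 28 muscle genes tested (rows, grouped by role) on each of the 6 arrays (columns); colour is log2(intensity + 16) minus the gene's mean over the 6 arrays, red above and blue below. The columns control 2 and Mest-KO 2 are the reddest, with mean deviations of 0.09 and 0.35, while Ryr1 is blue in the 3 controls and red in the 3 Mest-KO arrays.

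Between the genotypes, none of the 28 genes passed an adjusted p of 0.05 in limma's fit over all genes, where 21 of 14170 genes (0.148%) passed, 12 of them higher in Mest-KO (0.0847%) and 9 lower (0.0635%). The 28 genes gave 1 unadjusted p under 0.05 (Ryr1), a smaller share than the 8.97% of all genes tested that did. The intensities of the 2 genotypes did not overlap for Ryr1, which was higher in Mest-KO, and for Myh7, which was lower. Over all genes, 9.32% did not overlap with Mest-KO higher and 5.22% with Mest-KO lower, so 2 of 28 was no more than the background of 14.5% for either direction. The median log2 difference of the 28 genes was 0.06, beside 0.01 for all genes tested, and single genes ran from -0.36 to 0.66. Of the 28 differences 22 were above 0 and 6 below, or 78.6% above, where 53.8% of all genes tested were above 0. Another scaling moved both shares: 14 were above and 14 below with arrays centred on their medians (50%, beside 36.8% of all genes), and 18 above and 10 below with quantile normalization (64.3%, beside 51.0%). The split rested on single pools: 9 were above and 19 below without Mest-KO 2 (32.1%, beside 52.3% of all genes), and 14 and 14 without control 3 (50%, beside 52.3%).

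The fit bounds how large a difference these 6 arrays could have missed. For 27 of the 28 genes the estimate was under 1.5-fold on the log2(intensity + 16) scale, which understates the change of dim genes. On the same scale, the 95% interval lay within a 2-fold change either way for 27 genes, all but Myl1, and within 1.5-fold for 11. For dim genes these bounds allow a larger change of intensity than the fold named. The 95% interval excluded 0 on Ryr1 alone, and a p above the threshold does not show that the other genes were equal. The median width of the interval was 0.94 log2 units for the muscle genes and 0.55 for all genes tested, so the same fold was harder to see in the muscle genes.

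**Figure D2:**
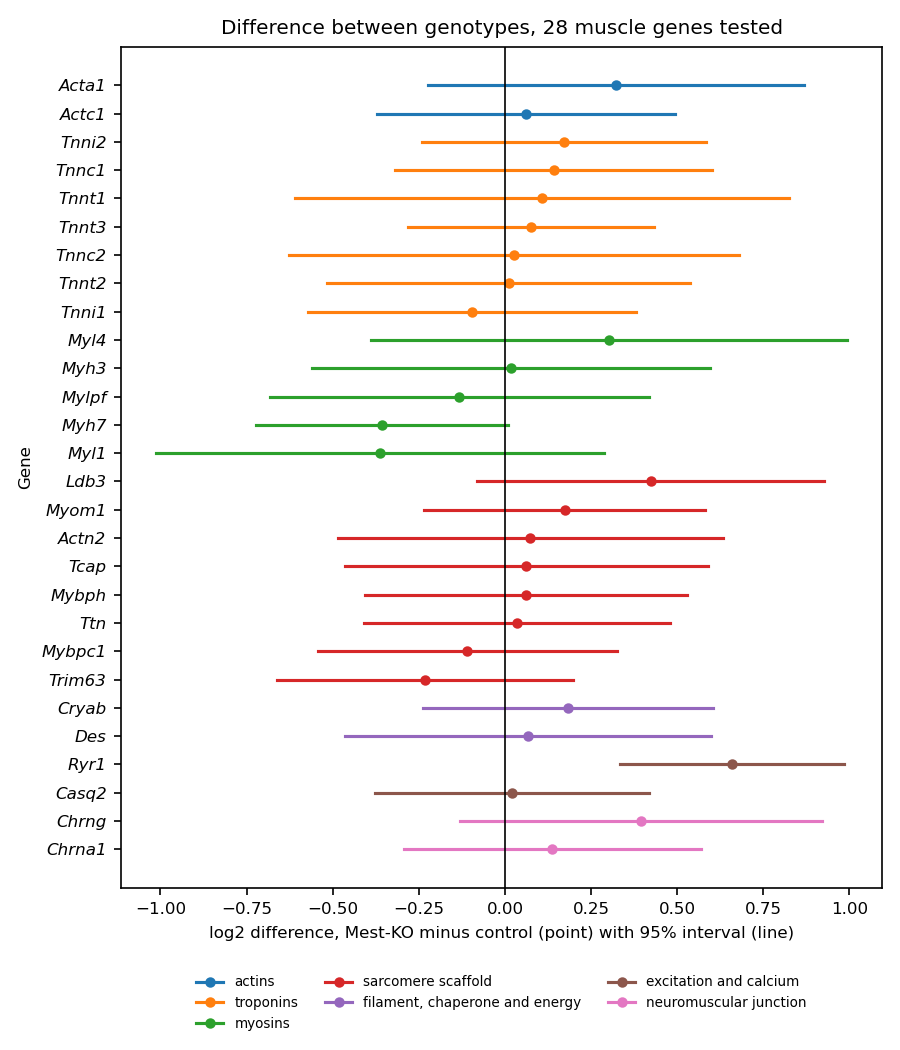
Log2 difference, Mest-KO minus control (points), with its 95% interval from limma (lines), for the 28 muscle genes tested, coloured by role. Ryr1 lies at 0.66 with an interval from 0.33 to 0.98, Myh7 and Myl1 lie lowest at -0.36, and the interval of each gene other than Ryr1 includes 0.

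Actins form the thin filament. Actc1, the cardiac alpha-actin that embryonic skeletal muscle also makes, read 584, 854 and 509 in controls 1, 2 and 3 and 552, 848 and 619 in Mest-KO 1, 2 and 3. The number 2 arrays stood above the rest in both groups, by 1.56 times the mean of the other 2 controls and 1.45 times that of the other 2 Mest-KO arrays, and the groups overlapped throughout. Its log2 difference was 0.06 ± 0.20 (SE; adjusted p = 0.955). Acta1, the alpha-actin of mature skeletal muscle, read 33.0, 27.1 and 27.9 in controls and 23.9, 68.1 and 37.9 in Mest-KO. Here control 2 was the lowest control while Mest-KO 2 was the highest array, and the log2 difference was 0.32 ± 0.25 (adjusted p = 0.756). It was 0.04 without Mest-KO 2 and 0.57 without Mest-KO 1.

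Troponins T, I and C are the calcium switch on the thin filament, and 7 of them were tested. Tnnt1, the slow skeletal troponin T, read 305, 603 and 212 in the controls and 261, 518 and 369 in Mest-KO. Control 2 was thus 2.33 times the mean of the other 2 controls, and Mest-KO 2 was 1.65 times that of the other 2 Mest-KO arrays. Between genotypes the log2 difference was 0.11 ± 0.33 (adjusted p = 0.952). Tnnc1, the slow and cardiac troponin C, read 193, 170 and 128 in controls and 135, 242 and 177 in Mest-KO (0.14 ± 0.21, adjusted p = 0.888), with Mest-KO 2 the highest array and control 1 the highest control. Tnni2, the fast troponin I, read 42.2, 23.6 and 30.1 in controls and 41.3, 38.3 and 32.8 in Mest-KO (0.17 ± 0.19, adjusted p = 0.843). It was the troponin in which control 2 was the lowest array. Its 2 other probe sets gave -0.06 ± 0.14 and -0.13 ± 0.09, the latter below background on all arrays, so the direction for Tnni2 was not shared by its probe sets. The other troponins (Tnnt2, Tnnt3, Tnni1 and Tnnc2) had log2 differences from -0.10 to 0.08.

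**Figure D3:**
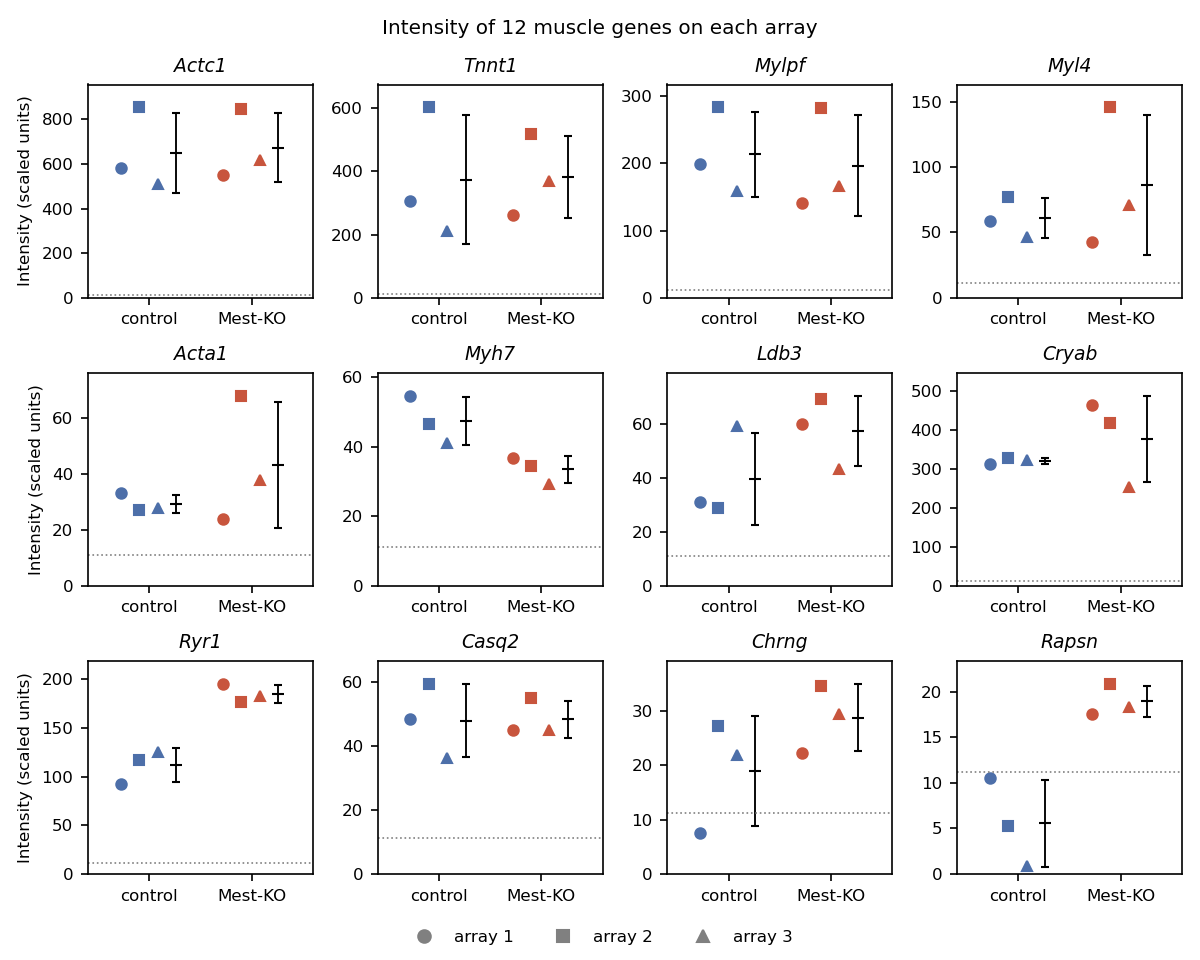
Intensity of 12 muscle genes on each array (points; circle, square and triangle for arrays 1, 2 and 3 of a group), with mean and SD of the 3 arrays beside them and background at 11.2 as a dotted line. Actc1, Tnnt1, Mylpf and Myl4 have the square highest in both groups, and in Ryr1 the 3 Mest-KO arrays (177 to 195) lie above the 3 controls (92.6 to 125).

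Myosins form the thick filament, and their light chains sit on the neck of the motor. Mylpf, the fast regulatory light chain, read 198, 284 and 159 in controls and 142, 282 and 166 in Mest-KO. The 2 arrays numbered 2 were nearly level while the other 4 lay well below them, and the log2 difference was -0.13 ± 0.25 (adjusted p = 0.917). Myl1, the fast essential light chain, read 84.9, 94.9 and 73.4 in controls and 39.0, 122 and 46.1 in Mest-KO. In this gene 2 Mest-KO pools lay below every control and the third lay above them all. The log2 difference of Myl1 was -0.36 ± 0.29 (adjusted p = 0.769). Without Mest-KO 2 it was -0.78 (adjusted p = 0.222), and without Mest-KO 1 it was -0.11. Myl4, the embryonic and atrial light chain, read 58.5, 77.3 and 46.8 in controls and 42.3, 146 and 70.8 in Mest-KO (0.30 ± 0.31, adjusted p = 0.833). Without Mest-KO 2 that difference turned to -0.09, and without Mest-KO 1 it was 0.64. Myh3, the embryonic heavy chain, gave 0.02 ± 0.26, again with both number 2 arrays on top.

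Myh7, the slow and cardiac heavy chain, was the myosin that did not follow the pools. Its intensities were 54.7, 46.5 and 41.0 in controls (47.4 ± 6.87, SD, n = 3) and 36.7, 34.4 and 29.2 in Mest-KO (33.4 ± 3.87, n = 3), so every Mest-KO array lay below every control. The log2 difference was -0.36 ± 0.17 with a 95% interval of -0.72 to 0.01, and the adjusted p was 0.565. An exact two-sided permutation test of the 3 against 3 arrays gave p = 0.1, the smallest that this design allows. Of the myosins, the perinatal heavy chain Myh8 was above background on 1 array, Mest-KO 2, and was not tested.

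Of the genes that build and hold the sarcomere, 8 of 10 were tested. Ldb3, which anchors proteins at the Z-disc, read 30.9, 29.0 and 59.3 in controls and 60.0, 69.1 and 43.3 in Mest-KO. Control 3 lay with the Mest-KO arrays, the groups overlapped, and the log2 difference was 0.42 ± 0.23 (adjusted p = 0.628), or 0.66 without control 3. Its 2 other probe sets gave 0.16 ± 0.15 and 0.00066 ± 0.20, the latter above background on 1 array. Trim63, the muscle ubiquitin ligase also called MuRF1, read 20.5, 34.6 and 24.5 in controls and 15.4, 25.6 and 19.4 in Mest-KO (-0.23 ± 0.19, adjusted p = 0.783), with the number 2 array highest in each group. Myom1, which links thick filaments at the M-band, read 66.8, 69.6 and 92.2 in controls and 110.1, 85.1 and 70.3 in Mest-KO (0.17 ± 0.18, adjusted p = 0.837). Mybpc1, the slow myosin-binding protein C, read 114, 107 and 72.7 in controls and 113, 74.3 and 80.2 in Mest-KO. Its log2 difference was -0.11 ± 0.20 (adjusted p = 0.910), and its other probe sets gave -0.08 ± 0.17 and 0.04 ± 0.30. In these last 2 genes neither number 2 array was the highest of all, and Mest-KO 1 and control 1 were instead. Ttn, the giant spring of the sarcomere, was dim, with its chosen probe set at 7.89 to 19.4 on the 6 arrays and a log2 difference of 0.03 ± 0.20. Mybph, Actn2 and Tcap gave 0.06 to 0.07.

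Desmin, the intermediate filament protein that ties sarcomeres together, followed the pools. Des read 29.9, 46.9 and 24.6 in controls and 34.8, 52.5 and 22.8 in Mest-KO, and its log2 difference was 0.07 ± 0.24 (adjusted p = 0.960). A second Des probe set was below background on every array. Cryab, a small heat shock protein that protects desmin and is also made outside muscle, did not. It read 313, 328 and 323 in controls and 464, 418 and 253 in Mest-KO, so the controls lay within a narrow range that Mest-KO 1 and 2 exceeded and Mest-KO 3 fell short of. The log2 difference of Cryab was 0.18 ± 0.19 (adjusted p = 0.834), with 0.02 without Mest-KO 1 and 0.44 without Mest-KO 3, and a second probe set gave 0.10 ± 0.16, while a further one was below background on every array. Ckm, the muscle creatine kinase, was above background on 2 of the 6 arrays and was not tested.

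Excitation and calcium release held the gene with the largest difference of the 28. Ryr1, the ryanodine receptor through which calcium leaves the sarcoplasmic reticulum of skeletal muscle, read 92.6, 117 and 125 in controls 1, 2 and 3 and 195, 177 and 183 in Mest-KO 1, 2 and 3. All 3 Mest-KO arrays lay above all 3 controls, the group means were 184.8 ± 9.55 and 111.8 ± 17.1 (SD, n = 3 each), and the number 2 arrays were not the highest of either group. The log2 difference was 0.66 ± 0.15 with a 95% interval of 0.33 to 0.98. Its unadjusted p of 0.000975 came to an adjusted p of 0.165 over all genes in limma, which does not pass, and the exact permutation p was 0.1, the smallest possible. Over the 17 alternative settings tried, the difference stayed between 0.42 and 0.74 and the adjusted p between 0.103 and 0.485. A second Ryr1 probe set, near background, read 10.7, 11.3 and 7.92 in controls and 14.0, 13.6 and 12.7 in Mest-KO, also without overlap (0.18 ± 0.12). Heart markers also summed higher on all Mest-KO arrays (317 to 435) than on all controls (271 to 298), but they did not move as 1. Of the 6 tested, 4 were above 0 and 2 below, and without overlap Tnni3 was higher and Myl2 lower in Mest-KO. Tbx20 read 132 and 160 on Mest-KO 1 and 2, and 26.7 to 53.1 on the other arrays. The part of heart markers in the result for Ryr1 was not tested.

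Casq2, the calsequestrin that stores calcium in the reticulum of slow and cardiac muscle, showed no such difference. It read 48.5, 59.3 and 36.3 in controls and 45.1, 55.0 and 45.1 in Mest-KO, with both number 2 arrays on top and a log2 difference of 0.02 ± 0.18 (adjusted p = 0.985). Cav3, the muscle caveolin, was below background on every array.

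The neuromuscular junction genes were close to background. Chrng, the gamma subunit that makes up the fetal acetylcholine receptor, read 7.59, 27.2 and 21.9 in controls and 22.2, 34.6 and 29.4 in Mest-KO. Control 1 stood below background, control 3 lay just under the lowest Mest-KO array, and only control 2 lay within the Mest-KO range. The log2 difference was 0.40 ± 0.24 (adjusted p = 0.659), with 0.14 without control 1 and 0.57 without control 2, and its 2 other probe sets were below background on all arrays. Chrna1, the subunit that carries the acetylcholine site, read 9.45, 18.7 and 9.69 in controls and 18.4, 14.8 and 12.5 in Mest-KO (0.14 ± 0.20, adjusted p = 0.883). Chrnd, the delta subunit, was below background throughout, and Musk, the receptor kinase that organises the junction, was above it on 1 array.

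Rapsn, which encodes rapsyn, the scaffold that clusters the receptors, did not reach the filter on the mean level. It is described here because of its values, which were seen first. It read 10.5, 5.26 and 0.923 in controls, all below background, and 17.6, 20.9 and 18.4 in Mest-KO, all above it. With the background taken as the level of the controls where they lay under it, Rapsn was at least 1.28-fold higher in Mest-KO on the log2(intensity + 16) scale. In the fit with no filter its adjusted p was 0.316, so it did not pass, and the exact permutation p was 0.1.

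Other muscle genes were read from lists of muscle regulators and of further striated muscle genes. Of 23 regulators, 20 were tested, and none passed an adjusted p of 0.05 in limma. Only 1, Pax7, had an unadjusted p under 0.05, where 8.97% of all genes tested did. Of the 20, 10 were above 0 and 10 below, where 53.8% of all genes tested were above 0. The median log2 difference was -0.03. The regulators shared the order of the pools in 6 of 20 genes (30%), beside 8.61% of all genes. Among them Myog, the factor that drives fusion and differentiation, read 52.5, 182 and 80.2 in controls and 30.6, 133 and 84.5 in Mest-KO. Myod1, the factor that commits cells to muscle, read 53.8, 159 and 56.6 and then 46.2, 98.2 and 76.5. Mymx, a small membrane protein needed for myoblast fusion, read 66.7, 128 and 62.6 in controls and 54.6, 119 and 46.8 in Mest-KO. In each of these 3 genes control 2 was the highest of all 6 arrays and Mest-KO 2 the highest of its group. The 3 were named after their values were seen. Myf5, Rbm24 and Mef2a also had the number 2 array highest within each group, with Mest-KO 2 the highest of all 6.

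By the smallest p, the regulators named were Pax7, Mef2c, Lhx2 and Msc. Pax7, a factor of muscle satellite cells and also of the dorsal neural tube, read 112.7, 69.1 and 148 in controls and 17.6, 92.8 and 23.9 in Mest-KO (-1.21 ± 0.39, adjusted p = 0.336). Control 2 was the lowest control, and Mest-KO 2 the highest Mest-KO array. Without both of these arrays, a setting chosen after seeing the data, the difference was -1.99 ± 0.23 with an adjusted p of 0.00112. Over all alternatives the adjusted p of Pax7 ran from 0.00112 to 0.722. The mean over a list of 13 hindbrain neural tube genes moved in the same pattern, with log2 deviations of 1.01, -0.21 and 1.09 in controls and -0.76, -0.21 and -0.91 in Mest-KO. Not every gene of the list did, Gata2, Tal1 and Nkx6-1 being exceptions. The part of these hindbrain genes in the result for Pax7 was not tested. Mef2c gave 0.20 ± 0.10, Lhx2 -0.40 ± 0.21 and Msc 0.27 ± 0.16, with adjusted p from 0.587 to 0.659.

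Of 82 further striated muscle genes, 76 had a probe set, 12 of these were at or below background on every array, and 49 were tested. None passed in limma, and 3 had an unadjusted p under 0.05, where 8.97% of all genes tested did. Of the 49, 32 were above 0 and 17 below, where 53.8% of all genes tested were above 0. The median log2 difference was 0.05. The number 2 arrays were highest in both groups for 9 of 49 (18.4%), beside 8.61% of all genes tested. Those with the smallest p were Actn3, the fast alpha-actinin, at 273 ± 39.8 in controls and 373 ± 46.7 in Mest-KO (SD, n = 3; 0.43 ± 0.14, adjusted p = 0.364), Agrn, the nerve signal that starts receptor clustering, at 0.18 ± 0.07 (adjusted p = 0.475), Tnni3, the cardiac troponin I, at 0.50 ± 0.19 (adjusted p = 0.464), and Casq1, the fast calsequestrin, at -0.38 ± 0.19 (adjusted p = 0.589). Among the dim genes of this list that the filter removed, 4 had an unadjusted p under 0.05 and no overlap in the fit with no filter, and are named here after their values were seen. In the main fit 8.97% of all genes tested had such a p and 14.5% did not overlap. The shares with no filter are not given here, so the 4 are not set above a background. Trdn, which encodes triadin, a partner of the ryanodine receptor, read 16.8, 8.01 and 16.2 in controls and 1.05 to 1.79 in Mest-KO, where all 3 arrays were below background (adjusted p = 0.250). Cacng1, a calcium channel subunit, also read lower in Mest-KO, and Myl3 and Myh2 read higher, with adjusted p from 0.456 to 0.590. Cacng1 and Myh2 were each above background on only 1 array, and Myl3 on 3.

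**Figure D4:**
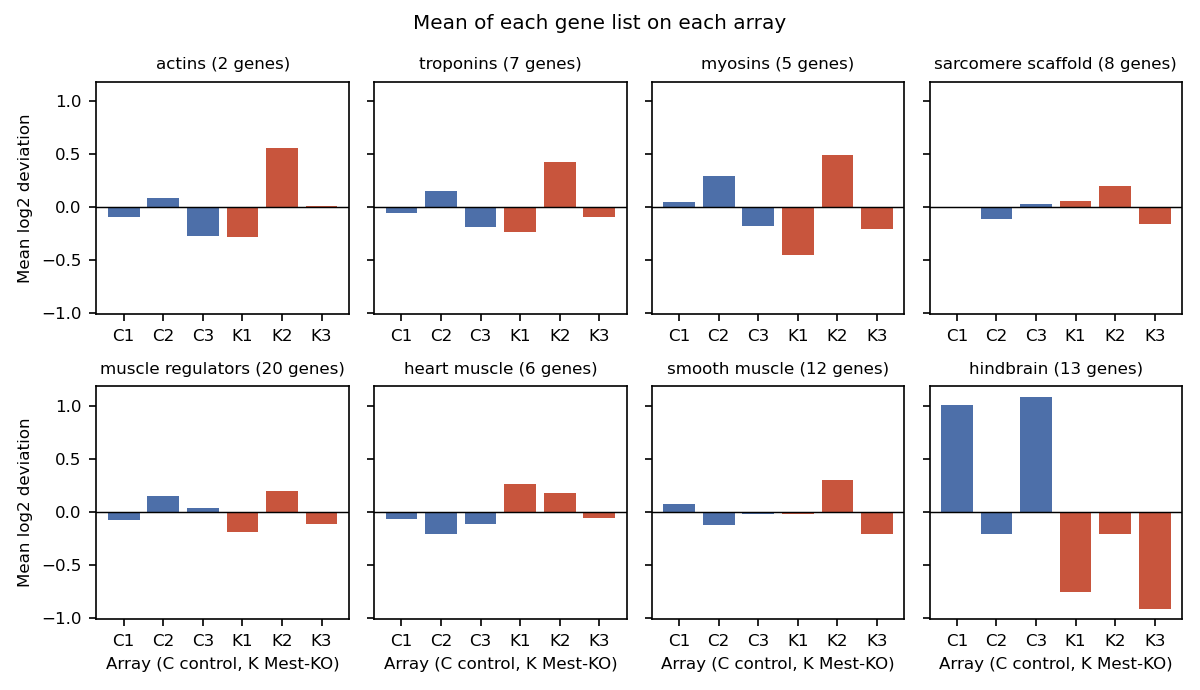
Mean deviation on each array (bars; C1 to C3 controls, K1 to K3 Mest-KO) of log2(intensity + 16) from each gene's mean over the 6 arrays, for 4 roles of muscle genes and 4 other lists. In myosins and troponins C2 and K2 are the highest of their groups, while in the sarcomere scaffold C2 is the lowest control. In the hindbrain list C1 and C3 reach 1.01 and 1.09 and C2 lies at -0.21.

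Actc1, Tnnc1, Tnnt2, Myl4, Myh7, Casq2 and Actn2 are also made in the heart, so heart markers were read beside them. Of 17 listed, 16 had a probe set, and 5 were above background on every array, among them the factor Tbx20. The factors Nkx2-5 and Tbx5 were at or below it on every array, and Gata4 was above it on control 2 alone (13.2). In the mean deviation of the heart markers control 2 was not the highest control (-0.07, -0.21 and -0.11 in controls, 0.26, 0.18 and -0.06 in Mest-KO, over the 6 tested). It was the highest control in that of the actins, troponins and myosins. In that of the 8 sarcomere scaffold genes tested control 2 was the lowest control (-0.003, -0.12 and 0.03 in controls). Smooth muscle markers, all 13 of which had a probe set, summed to 6290 in control 2, the lowest control, and 8005 in Mest-KO 2, the highest array. The part of heart or smooth muscle RNA in the values of the genes shared with them was not tested. Erythroid markers (10 tested) deviated by -0.54 on Mest-KO 3 and lay between -0.10 and 0.35 on the other arrays.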

How the data were processed

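RNA was measured on 1-colour Affymetrix Mouse Genome 430 2.0 arrays, 3 of Mest-KO and 3 of control tissue, from 300 ng of total RNA each. The authors deposited linear intensities; the submitters' processing notes name Affymetrix Expression Console 1.1, and no source used here gives the summarization algorithm. Trimmed by 2% at each end, the mean of all 6 arrays was 500.002, so a shift common to most genes was scaled away. Control probe sets (64) were left out, and 34945 of 45101 probe sets were listed with 1 gene symbol. Intensities were taken as log2(value + 16). Each gene was read by its brightest probe set and kept where its mean log2 was above the 30th percentile of probe sets, leaving 14170 of 18193 genes. The genotypes were compared in limma 3.58.1 (R 4.3.3; lmFit and eBayes with trend, two-sided, Benjamini-Hochberg over all genes tested at 0.05), after the fit had been tested on simulated data. Errors of log2 differences are standard errors. Each array is a biological replicate per the labels, and the number of arrays limits the precision. Same-numbered arrays were not paired in the main fit, and the labels state no pairing (correlations of their deviations over all genes were -0.03, -0.11 and -0.15). Genes described in full were those with an unadjusted p under 0.05, then those with the smallest p until 12 were reached, and the 2 brightest of each role. From each of the other muscle lists it was the 4 with the smallest p. The genes and the lists were chosen with earlier results of these data known. Alternatives changed the normalization, the pseudocount, the filter, the choice of probe set, the variance model and the arrays used. Promoters came from a RefSeq table.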

Additional observations from a re-analysis of the deposited data

How the results depend on the processing

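None of the muscle genes tested passed the threshold under any of the 17 alternatives (11 genes tested under a stricter filter, 36 under none and 28 under the others), and their median log2 difference ran from -0.08 to 0.17. The count over all genes moved far more: from 21 to 78 with arrays centred on their medians (22 higher and 56 lower), 2 with no filter, 6 with the mean of all probe sets, 1 with eBayes without trend, 9 with the replicate block, 2 to 82 with 1 array left out (82 without control 2) and 82 without both number 2 arrays, a setting chosen after seeing the data. The replicate block changed no call of a muscle gene (Ryr1 adjusted p = 0.271). The median of the regulators was 0.0955 without control 2 (-0.0621 to 0.0955 with 1 array left out), and 1 regulator passed without both number 2 arrays. The median of the further striated genes was -0.0157 with centring and 0.0858 without both number 2 arrays. The mean deviation of the 28 muscle genes on control 2 was 0.21 with centring, from 0.09. Signs turned only for differences that did not pass. With 1 array left out, Actc1 ran from -0.11 to 0.27, Tnnt1 from -0.21 to 0.51, Tnnc1 from -0.0575 to 0.33, Myl4 from -0.0929 to 0.64, Mylpf from -0.40 to 0.0771, Des from -0.14 to 0.27 and Casq2 from -0.12 to 0.15. Without both number 2 arrays Acta1 was at -0.000375, Tnnc1 at -0.0230 and Mybpc1 at 0.0569. With centring Actc1 was at -0.00428 and Casq2 at -0.0448, with quantile normalization Casq2 was at -0.0343, and with the mean of probe sets Tnni2 was at -0.00574. Where no construction of the setting shows it, the cause was not tested. Signal over background limits the junction genes, Ttn, Tcap and Mybph, which were near background on some arrays.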
